A study of Homo sapiens with 12 samples.

Results

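The genes described here are 37 DNA repair genes linked to androgen receptor signalling and prostate cancer, out of 20037 protein-coding genes. They were chosen by name, not by any measured value, though with earlier results of these data known. For each gene, all regions of 3 deposited lists that overlapped the gene body or the 10 kb on either side, together called its locus, were collected on the RefSeq annotation of GRCh38. The study exposed 22Rv1 cells, an established human prostate cancer line labelled as wild type in every group, to 4 conditions for 6 h, with 3 samples each, and profiled chromatin accessibility by ATAC-seq, in which a transposase cuts open DNA. The groups were vehicle, enzalutamide at 1 µM (an androgen receptor antagonist), OSU-ERb-12 at 100 nM (an oestrogen receptor beta agonist), and OSU-ERb-12 plus enzalutamide, here called the combination, whose samples state no doses of their own. Samples given oestradiol, which the study design mentions, were not analysed here. All results come from a single cell line.

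Each treatment is represented by 1 list of regions of nucleosome-free DNA. The enzalutamide list has 25317 regions, the OSU-ERb-12 list 17931 and the combination list 6248. The lists carry no value per region or per sample and do not say whether a region became more or less accessible. Their names hold the tag "neg", which the labels do not explain, and no direction was read from it. The group that each list was compared with is not stated in the labels or files. The OSU-ERb-12 list was matched to its samples through the prefix WT that both carry. Sequencing depth is unknown from these files. There is therefore no replicate error, no test of a difference between treatments was possible, and every interval below is an exact 95% interval that covers the counting of regions or genes only. The lack of a listed region does not show that accessibility stayed the same.

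DNA breaks on both strands are repaired mainly along 2 routes. Homologous recombination copies the lost sequence from the sister chromatid with the help of BRCA1, BRCA2 and PALB2, whereas end joining ligates the ends after Ku and the DNA-dependent kinase have bound them. Mismatch repair corrects replication errors, base excision and single-strand break repair mend damaged bases and nicks, and the Fanconi anaemia pathway removes crosslinks. Androgen receptor signalling is known to promote the expression of repair genes in prostate cancer, and tumours with defects in recombination genes are treated with PARP inhibitors.

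Enzalutamide regions lay at 24 of the 37 repair genes (64.9%), OSU-ERb-12 regions at 16 (43.2%) and combination regions at 10 (27.0%). Over all protein-coding genes the shares were 58.3%, 39.1% and 21.7%. Repair genes are longer than the typical gene, with a median locus of 74.9 kb against 44.1 kb, and a longer locus has more room for a region. If each repair gene had the share of genes in its own decile of gene length, 24.9, 17.4 and 9.38 genes would hold a region of the 3 lists. The repair genes as a whole were thus close to the background in every list. The density of regions gave the same picture. Repair gene loci, 4.25 Mb in all, held 51 enzalutamide regions, 12 per Mb (exact Poisson interval 8.94 to 15.8), against 11.8 in all protein-coding loci. For OSU-ERb-12 the density was 5.65 per Mb (3.62 to 8.41) against 7.60, and for the combination 3.30 (1.80 to 5.53) against 2.86.

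At least 1 region of any list was present at 30 repair genes (81.1%), against 70.7% of all genes. RAD51B, CHEK1, PRKDC and PARP1 held regions of all 3 lists, which is 4 of 37 (10.8%) and again near the background of 11.0%. A further 11 genes held enzalutamide regions alone (29.7%, against 23.1% of all genes). NBN, BLM and TP53BP1 held OSU-ERb-12 regions alone (8.11%, against 7.70%), and no repair gene held combination regions alone, a pattern found at 2.46% of all genes. POLL, XRCC1 and PMS2 held OSU-ERb-12 and combination regions without an enzalutamide region. They make up 8.11% of the repair genes, against 2.23% of all genes with this pattern. PALB2, RAD50, MRE11, XRCC4, POLQ, POLB and PARP2 held no region of any list. XRCC4 is the longest of these 7, with a locus of 317 kb.

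**Figure D1:**
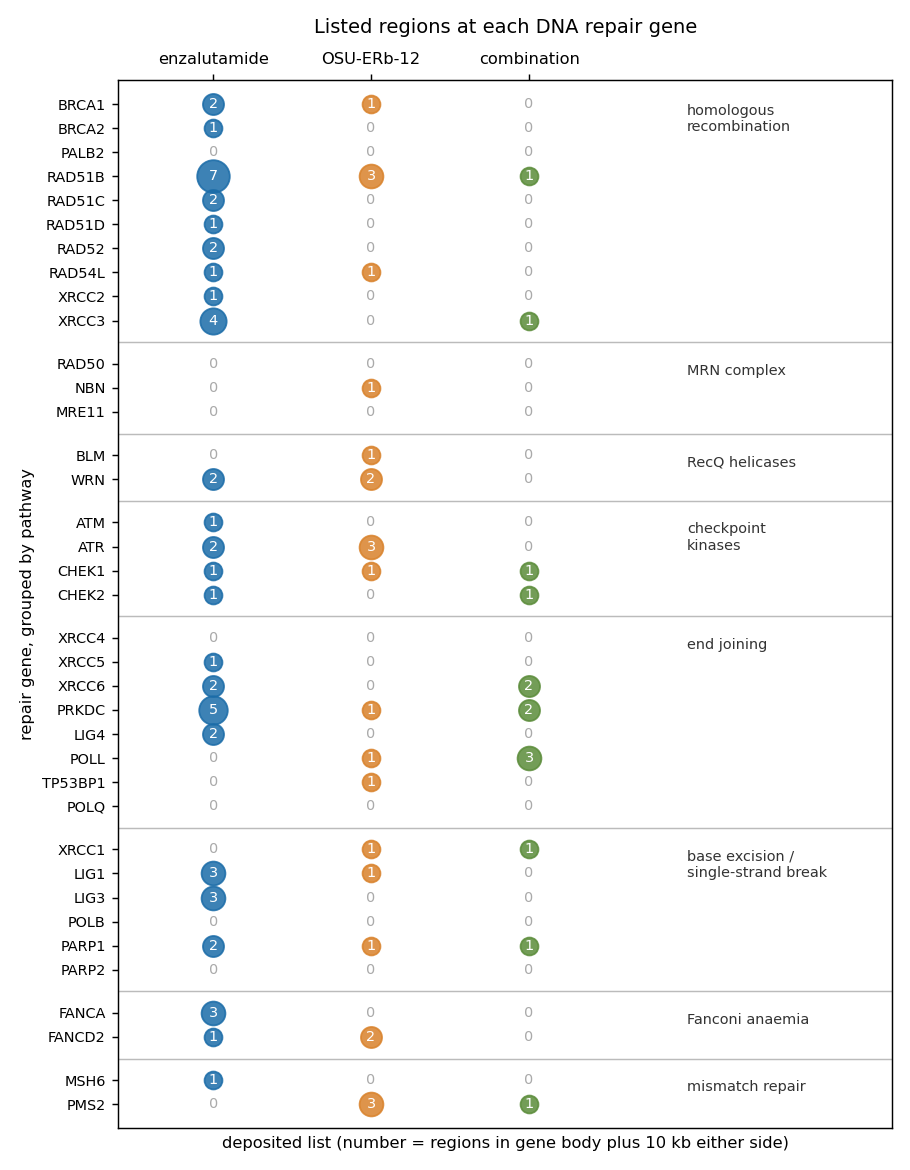
Number of listed regions in the locus (gene body plus 10 kb either side) of each of the 37 repair genes, by list; the rows are grouped by pathway and larger dots mark more regions. RAD51B has the most enzalutamide regions (7), followed by PRKDC (5) and XRCC3 (4), and 7 genes show 0 in every column.

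Among homologous recombination genes, 9 of 10 held an enzalutamide region and PALB2, the link between BRCA1 and BRCA2, did not. Only 3 of the 10 held an OSU-ERb-12 region (BRCA1, RAD51B and RAD54L) and 2 a combination region (RAD51B and XRCC3). With the shares of genes of like length, 6.60, 4.59 and 2.50 genes would hold one. The enzalutamide count was above and the other counts below that figure, on 10 genes. With the MRN complex and RecQ helicase genes added to the class, 10 of 15 held an enzalutamide region, where genes of like length give 10.3, so the higher count rests on how the class is drawn. The loci of the 10 genes held 13.6 enzalutamide regions per Mb (exact Poisson interval 8.43 to 20.8), 3.24 OSU-ERb-12 regions (1.05 to 7.56) and 1.30 combination regions (0.157 to 4.68). RAD51B, which spans 863 kb, sets much of this length. Without it the 9 other loci held 21.2 enzalutamide regions per Mb (11.6 to 35.6) and 3.03 OSU-ERb-12 regions (0.367 to 11.0), against 11.8 and 7.60 in all protein-coding loci.

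RAD51B (chromosome 14, 67819779 to 68683096) encodes a protein that acts in homologous recombination. It held 7 enzalutamide, 3 OSU-ERb-12 and 1 combination regions, where the mean density of chromosome 14 gives 6.10, 3.31 and 1.29 for a locus of this length. Such a density includes DNA far from genes and is a low baseline for enzalutamide, since over all 37 loci it gives 36.9 regions where 51 lay. For OSU-ERb-12 it gives 26.7 against 24, and for the combination 9.36 against 14. The RAD51B counts were near those from this chromosome baseline, and were not set against the higher density of gene loci. The enzalutamide regions lay at 67815951 to 67816250, within 1 kb of a start of ZFYVE26, and inside the gene at 68164551 to 68164900, 68191801 to 68192050, 68292001 to 68292200, 68307201 to 68307400, 68392751 to 68392950 and 68628701 to 68629100. Those of OSU-ERb-12 lay at 68161001 to 68161200, 68485101 to 68485300 and 68665101 to 68665400, and that of the combination at 68503001 to 68503200. XRCC3, another homologous recombination gene on chromosome 14 (103697617 to 103715451), held 4 enzalutamide regions in a locus of 37.8 kb, where that density gives 0.261. All 4 lay in the body of a neighbouring gene, and the third of them also in XRCC3 itself: the regions at 103693301 to 103693600, 103695951 to 103696150 and 103698151 to 103698350 in KLC1, and the region at 103716201 to 103716450 in ZFYVE21. The combination region of XRCC3, at 103718201 to 103718400, was also in ZFYVE21. The position alone does not assign these regions to XRCC3 rather than to its neighbours.

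BRCA1 (chromosome 17, 43044295 to 43170327) held enzalutamide regions at 43169701 to 43169900 and 43171751 to 43172000. Both lay within 1 kb of a start of the neighbouring gene NBR1. RefSeq lists 2 starts for BRCA1, and the first region began 427 bases inside the one at 43170327, while none lay within 1 kb of the one at 43125364. The single region that OSU-ERb-12 had here, from 43079401 to 43079600, lay 45764 bases into the gene from that second start. BRCA2, a mediator of homologous recombination (chromosome 13, 32315077 to 32400268), held 1 enzalutamide region, at 32320551 to 32320750 within the gene. RAD54L, a motor protein of strand exchange, held an enzalutamide region 2388 bases before its start (chromosome 1, 46245051 to 46245300) and an OSU-ERb-12 region inside the gene (46266651 to 46266850). The only region of XRCC2 was an enzalutamide region 1760 bases before its start (chromosome 7, 152677901 to 152678200).

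The MRN complex binds broken ends and starts their resection. RAD50 and MRE11 held no listed region and NBN held 1 OSU-ERb-12 region (chromosome 8, 89976501 to 89976750). None of the 3 genes held an enzalutamide region, where genes of like length give 2.15. For OSU-ERb-12, 1 of the 3 held a region, against 1.54, and for the combination none, against 0.808. The exact Poisson interval for enzalutamide, 0 to 12.4 per Mb, holds the 11.8 of all protein-coding loci. The RecQ helicases unwind recombination intermediates. Enzalutamide regions lay at 1 of the 2 genes and OSU-ERb-12 regions at both, where genes of like length give 1.52 and 1.12. In WRN each of these lists had 2 regions inside the gene. The enzalutamide region at 31087451 to 31087800 on chromosome 8 overlapped the OSU-ERb-12 region at 31087451 to 31087750, and the others were apart, at 31131401 to 31131700 for enzalutamide and 31157351 to 31157600 for OSU-ERb-12. BLM held a single OSU-ERb-12 region, 2435 bases past the end of the gene (chromosome 15, 90818601 to 90818800).

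All 4 checkpoint kinase genes held an enzalutamide region, where genes of like length give 2.84. For OSU-ERb-12 there were 2 such genes against 2.03, and for the combination 2 against 1.05. ATR led the OSU-ERb-12 list together with RAD51B and PMS2, with 3 regions each. ATR (chromosome 3, 142449235 to 142578733) encodes the kinase that senses stalled replication forks. Its OSU-ERb-12 regions lay at 142568401 to 142568600 within the gene and at 142584051 to 142584250 and 142586701 to 142586900 before it. The last overlapped the enzalutamide region at 142586851 to 142587050, which began 8118 bases before the gene start. The density of the OSU-ERb-12 list on chromosome 3 gives 1.64 regions for this locus. The other enzalutamide region of ATR, 650 bp wide and the widest at any repair gene, lay beyond the 3' end at 142447301 to 142447950, in the body of XRN1 and within 1 kb of its start. CHEK1, the kinase that acts below ATR, held 1 region of each list at 3 separate places on chromosome 11. The combination region was near its start (125626501 to 125626700), the enzalutamide region further inside (125637901 to 125638200) and the OSU-ERb-12 region 8977 bases past the gene (125690101 to 125690300).

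End joining genes held enzalutamide regions at 4 of 8, OSU-ERb-12 regions at 3 and combination regions at 3, where genes of like length give 5.66, 4.15 and 2.30. Combination regions numbered 7 in 1.03 Mb of end joining loci, 6.82 per Mb (exact Poisson interval 2.74 to 14.1), while homologous recombination loci held 2 in 1.54 Mb. For enzalutamide the densities were 9.75 per Mb (4.67 to 17.9) in end joining and 13.6 (8.43 to 20.8) in homologous recombination loci. The intervals of the pathways overlapped in both lists, and the difference was not tested. Without POLQ and TP53BP1, 4 of 6 end joining genes (66.7%) held an enzalutamide region, the same share as in the wider class of 15 recombination genes. In gene bodies alone, 25.0% of the 8 end joining genes held an enzalutamide region, against 41.0% of all genes. The share was 12.5% against 26.8% for OSU-ERb-12 and 25.0% against 13.9% for the combination.

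POLL (chromosome 10, 101578882 to 101588270), a gap-filling polymerase of end joining, held 3 of the 7 combination regions although its locus spans 29.4 kb. The combination region at 101570151 to 101570550, beyond the 3' end, shared its left boundary with the OSU-ERb-12 region at 101570151 to 101570350. A further combination region, at 101579201 to 101579400, lay inside POLL, and the third, at 101595951 to 101596150, lay in the body of the neighbour DPCD. PRKDC (chromosome 8, 47773111 to 47960136), the catalytic subunit of the DNA-dependent kinase, held 5 enzalutamide regions against 1.95 from the density of its chromosome. The fifth lay outside the gene, at 47765551 to 47765800, and the other 4 inside it, at 47869151 to 47869350, 47905801 to 47906100, 47911151 to 47911400 and 47920251 to 47920450. Its combination regions at 47826551 to 47826850 and 47831101 to 47831300 lay elsewhere in the gene, and its OSU-ERb-12 region lay past its lower end, at 47763051 to 47763250.

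The Ku subunits bind DNA ends first. XRCC6, which encodes Ku70 (chromosome 22, 41621295 to 41664041), held 2 enzalutamide and 2 combination regions and none of OSU-ERb-12. Both lists have a region at 41666951 to 41667200, which is 2910 bases past the gene. Before the gene, the enzalutamide region at 41620401 to 41620600 and the combination region at 41620601 to 41620850 touched without overlapping, both in the body of DESI1. XRCC5, which encodes Ku80, held 1 enzalutamide region inside the gene (chromosome 2, 216113701 to 216114000). LIG4, the ligase of end joining, held 2 enzalutamide regions (chromosome 13, 108218501 to 108218700 and 108220101 to 108220400), both also in the body of ABHD13, and its partner XRCC4 held none. TP53BP1, which limits resection and so favours end joining, held 1 region, of the OSU-ERb-12 list (chromosome 15, 43417451 to 43417750), and POLQ, the polymerase of an alternative end joining route, held none.

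Of the 2 mismatch repair genes, 1 held a region of each list, where genes of like length give 1.21 (enzalutamide), 0.788 (OSU-ERb-12) and 0.430 (combination). MSH6 (chromosome 2, 47783145 to 47810101), a subunit of the complex that recognises mismatches, held 1 enzalutamide region, at 47783201 to 47783400, and no other. PMS2 (chromosome 7, 5970925 to 6009106), a subunit of the endonuclease that acts next, held no enzalutamide region, 3 OSU-ERb-12 regions and 1 combination region. The OSU-ERb-12 regions were at 5999351 to 5999600 inside the gene and at 6013451 to 6013650 and 6015751 to 6015950 before it, and the last had the boundaries of the combination region. Both regions before the gene lay in the body of AIMP2. For this locus the density of chromosome 7 gives 0.588 enzalutamide, 0.551 OSU-ERb-12 and 0.174 combination regions. With 2 genes no share can be compared with the other pathways, and PMS2 has near-identical pseudogene copies, for which the handling of reads is not given in the sources used here.

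**Figure D2:**
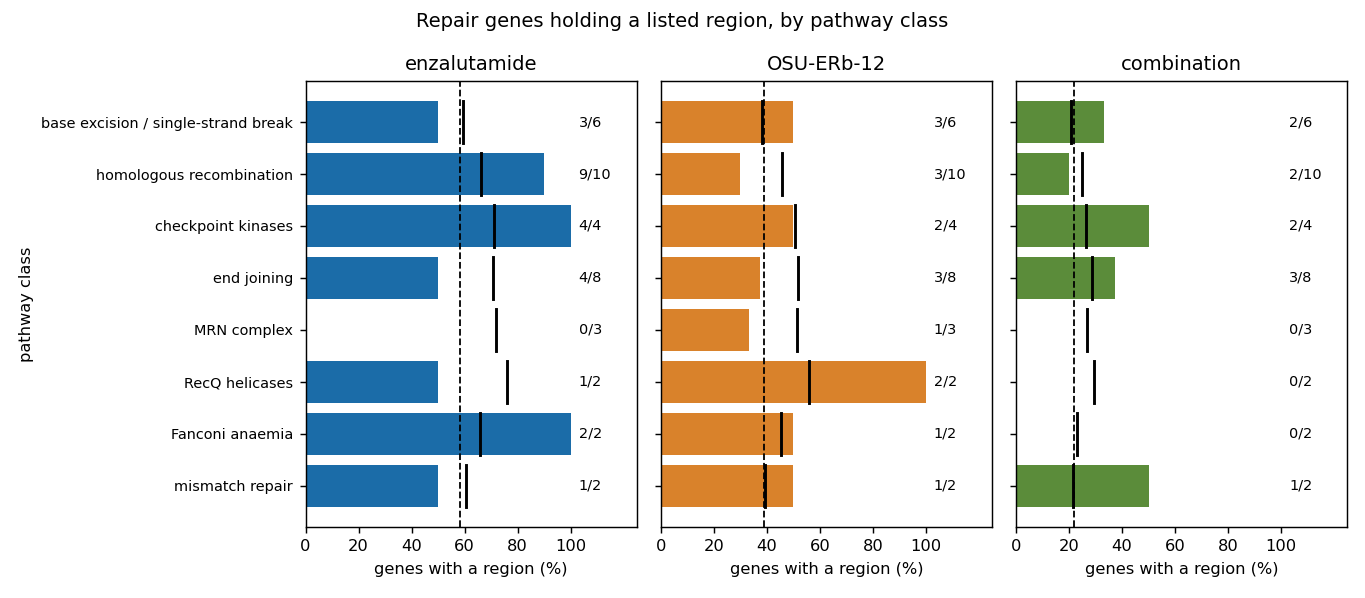
Percent of the genes of each pathway class that held at least 1 region of the enzalutamide, OSU-ERb-12 or combination list, with the count of genes beside each bar; the dashed line is the share of all protein-coding genes and the short black mark the share given by genes of like length. Homologous recombination reaches 9 of 10 for enzalutamide and 3 of 10 for OSU-ERb-12, and end joining 4 of 8 and 3 of 8.

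Base excision and single-strand break repair genes carried enzalutamide regions at 3 of 6 genes. For OSU-ERb-12 there were 3 such genes and for the combined treatment 2, where genes of like length give 3.56, 2.30 and 1.25. LIG3, the ligase that works with the scaffold protein XRCC1, held 3 enzalutamide regions (chromosome 17, 34980201 to 34980400, 34998201 to 34998400 and 35012051 to 35012250). The last lay past the gene, in the body of RFFL. LIG1, the replicative ligase, also held 3, all beyond its 3' end, at 48107451 to 48107650, 48110351 to 48110550 and 48112101 to 48112300 on chromosome 19, and 2 of them in the body of PLA2G4C, while its OSU-ERb-12 region lay inside the gene (48154101 to 48154300). The enzyme PARP1 detects strand breaks and is the main target of PARP inhibitors. In its gene (chromosome 1, 226360691 to 226408093) OSU-ERb-12 and the combination had a region with the same boundaries, 226406451 to 226406650, which began 1443 bases inside the gene. Its 2 enzalutamide regions lay further in, at 226385801 to 226386000, and past its 3' end, at 226351801 to 226352150. XRCC1 held a combination region inside the gene (chromosome 19, 43556201 to 43556400). Its OSU-ERb-12 region lay 6424 bases before the gene (43581951 to 43582150), in the body of PINLYP. POLB and PARP2 held no region. Both Fanconi anaemia genes held enzalutamide regions, where genes of like length give 1.32. FANCA, of the core complex, had 3 (chromosome 16, 89733451 to 89733700, 89772151 to 89772350 and 89822251 to 89822450), only the second inside the gene and the first in the body of ZNF276. FANCD2, the protein that this complex modifies, had 1 at its start and 2 OSU-ERb-12 regions inside the gene (chromosome 3, 10029501 to 10029700 and 10058651 to 10058900).

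The share of genes with a region at a start was highest for enzalutamide, the longest list, among repair genes and among all genes alike. RefSeq promoter windows give strand and start for 32 of the 37 genes and for 15843 of all protein-coding genes. NBN, WRN, PRKDC, POLB and XRCC5 have no entry. Enzalutamide regions lay within 1 kb of a listed start at 12 of the 32 genes (37.5%; exact Clopper-Pearson interval 21.1 to 56.3), against 29.2% of all genes. OSU-ERb-12 regions did so at none of the 32 (exact Clopper-Pearson interval 0 to 10.9), against 6.77% of all genes. Combination regions did so at 3 (9.38%; 1.98 to 25.0), namely CHEK1, CHEK2 and XRCC6, against 5.12%. In each list the counting interval of the repair genes holds the share of all genes, so no difference from the background was detectable with 32 genes. The median distance of a region's centre from the nearest start was 11.7 kb for 43 enzalutamide, 17.1 kb for 20 OSU-ERb-12 and 7.26 kb for 12 combination regions. These distances are given without those over all genes, so they are not a trait of repair genes.

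**Figure D3:**
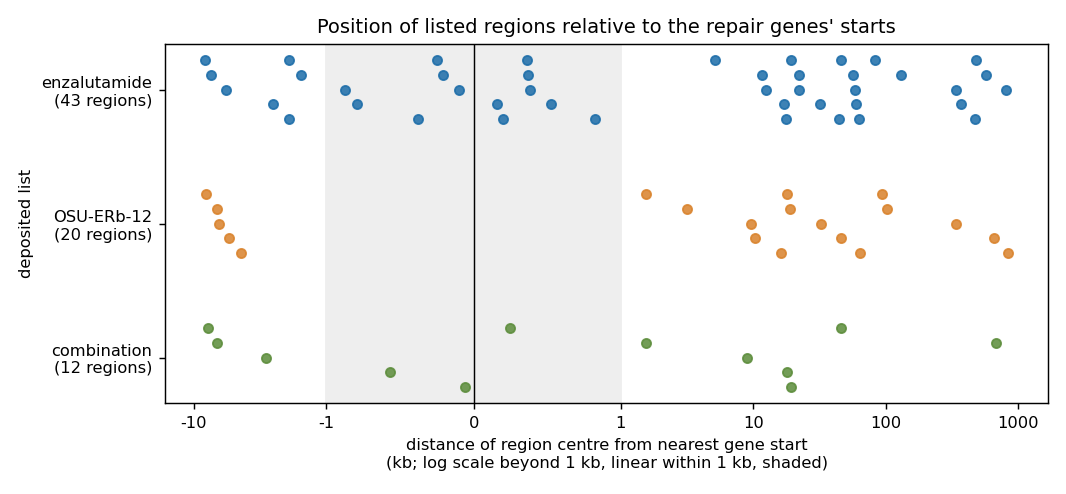
Distance of the centre of each listed region from the nearest listed start of the repair gene, in kb (negative before the start, logarithmic beyond 1 kb and linear in the shaded 1 kb on either side), for the 32 genes with a listed start. The enzalutamide row has 13 regions at a start, counted by overlap with the 1 kb on either side, the combination row 3, and the OSU-ERb-12 row 0.

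Most repair gene promoters are rich in CpG, a property of housekeeping genes. Of the 32 genes, 30 had a promoter window with at least 50% G and C and an observed to expected CpG ratio of at least 0.6 (93.8%, against 68.4% of all genes). Among all genes with such a window, 37.7% had a region at a start for enzalutamide. The share was 8.31% for OSU-ERb-12 and 6.56% under the combined treatment. Of the 30 CpG-rich repair genes, 12 (40.0%), 0 and 2 (6.67%) did. Set against genes with the same kind of promoter, the enzalutamide share of the repair genes was close to the background.

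**Figure D4:**
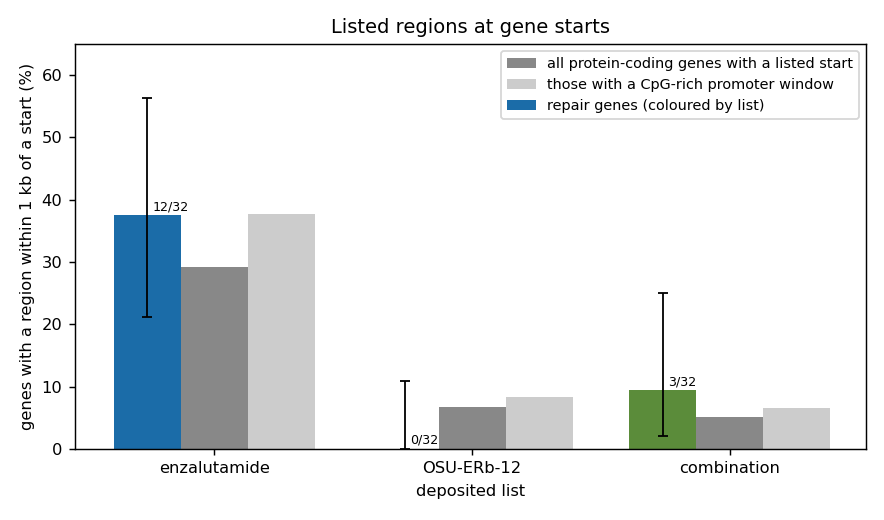
Percent of genes with a listed region within 1 kb of a listed start, for the 32 repair genes (coloured, with the exact Clopper-Pearson 95% interval), all 15843 protein-coding genes with a listed start (dark grey) and those with a CpG-rich promoter window (light grey). The 32 repair genes reach 37.5% for enzalutamide and 0 for OSU-ERb-12. The 30 repair genes with a CpG-rich window, not drawn apart, reach 40.0% for enzalutamide, against 37.7% of all CpG-rich genes.

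The 12 genes with an enzalutamide region at a start were BRCA1, RAD51C, RAD51D, RAD52 and XRCC3 of homologous recombination, the checkpoint kinases ATM and CHEK2, XRCC6 and LIG4 of end joining, and LIG3, FANCD2 and MSH6. At 7 of them the region was also within 1 kb of the start of another protein-coding gene, which was NBR1 for BRCA1, IGBP1C for RAD51C, ZFYVE21 for XRCC3, NPAT for ATM, HSCB for CHEK2, DESI1 for XRCC6 and ABHD13 for LIG4. Of the 32 repair genes, 14 have another gene's start within 1 kb of their own. Over all genes 38.8% of those with such a neighbour had an enzalutamide region at a start, and 27.5% of those without. The repair genes had 7 of 14 and 5 of 18. RAD51D, RAD52, LIG3, FANCD2 and MSH6 are the 5 whose region lay at no other gene's start.

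The regions did not sit at one place relative to the start. Of the 13 enzalutamide regions, 7 were centred inside the gene and 6 before the nearest start. RAD51C (chromosome 17, 58692573 to 58735611) had 2 of them in its first kb, at 58692651 to 58692950 and 58693301 to 58693550. The region of RAD51D, at 35119251 to 35119500 on chromosome 17, began 258 bases into the gene from the nearest start, and that of RAD52, a strand annealing factor, 194 bases (chromosome 12, 949151 to 949500). RAD52 is on the minus strand with 2 listed starts, and the start used here, at 949694, is the one further inside the gene. Its other enzalutamide region, at 977401 to 977700, began 12341 bases inside the start at 990041. The region of FANCD2, at 10026601 to 10027000, began 164 bases in, and that of MSH6 began 56 bases in from its first start at 47783145. ATM, the kinase that responds to broken DNA (chromosome 11, 108223067 to 108369102), had its only region at 108223101 to 108223350, which spans the second of its 2 listed starts. LIG4 and LIG3 had theirs before the start, 152 and 112 bases away.

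**Figure D5:**
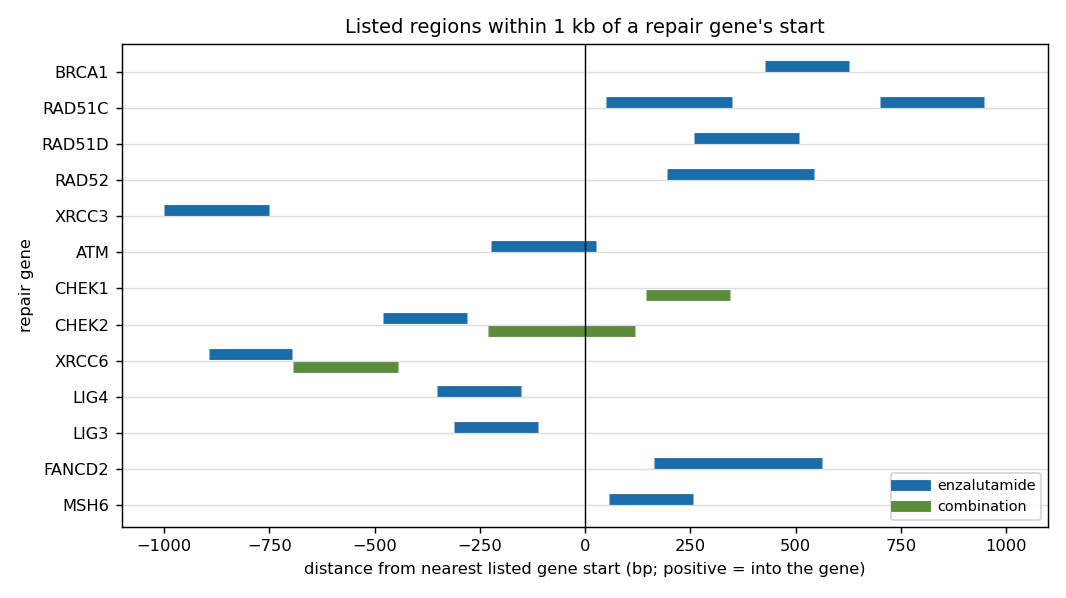
Listed regions within 1 kb of a start of a repair gene, drawn to scale in bp from the nearest listed start (positive values lie inside the gene), for the enzalutamide list (blue) and the combination list (green). At CHEK2 the lists have neighbouring regions 50 bp apart and at XRCC6 regions that touch, while the OSU-ERb-12 list has none to draw.

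At CHEK2, the checkpoint kinase activated by ATM, the enzalutamide and combination lists marked adjoining DNA. The combination region at 28741701 to 28742050 on chromosome 22 covered the start itself, and the enzalutamide region at 28742101 to 28742300 was separated from it by 50 bp. Both overlap the body of HSCB, and CHEK2 has near-identical pseudogene copies. The promoter windows of CHEK2, LIG3 and LIG4 are shown because a listed region covers part of the 250 bases before their first listed start. Enzalutamide regions also cover such bases before later starts of ATM and MSH6, whose windows are not printed. They are RefSeq sequences of GRCh38.p14 from 250 bases before to 30 after the start, read 5′ to 3′ on the strand of the gene. Capitals mark bases inside a listed region, of the combination list for CHEK2 and of the enzalutamide list for LIG3 and LIG4. The windows are chr22:28741791-28742070 on the minus strand for CHEK2, chr17:34980262-34980541 on the plus strand for LIG3 and chr13:108218320-108218599 on the minus strand for LIG4.
CHEK2: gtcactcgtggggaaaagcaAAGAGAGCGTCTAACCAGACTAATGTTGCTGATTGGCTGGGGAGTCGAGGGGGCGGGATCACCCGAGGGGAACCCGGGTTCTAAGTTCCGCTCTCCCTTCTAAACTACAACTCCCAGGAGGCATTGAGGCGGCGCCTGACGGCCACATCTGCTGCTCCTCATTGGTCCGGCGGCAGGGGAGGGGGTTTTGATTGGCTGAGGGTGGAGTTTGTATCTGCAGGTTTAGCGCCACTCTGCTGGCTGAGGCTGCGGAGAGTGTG
LIG3: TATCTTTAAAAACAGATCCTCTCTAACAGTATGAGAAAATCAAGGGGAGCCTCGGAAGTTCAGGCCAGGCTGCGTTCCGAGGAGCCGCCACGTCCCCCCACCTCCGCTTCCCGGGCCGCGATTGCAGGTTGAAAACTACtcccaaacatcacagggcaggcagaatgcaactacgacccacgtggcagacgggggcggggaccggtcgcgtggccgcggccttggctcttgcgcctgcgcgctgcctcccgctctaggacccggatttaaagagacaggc
LIG4: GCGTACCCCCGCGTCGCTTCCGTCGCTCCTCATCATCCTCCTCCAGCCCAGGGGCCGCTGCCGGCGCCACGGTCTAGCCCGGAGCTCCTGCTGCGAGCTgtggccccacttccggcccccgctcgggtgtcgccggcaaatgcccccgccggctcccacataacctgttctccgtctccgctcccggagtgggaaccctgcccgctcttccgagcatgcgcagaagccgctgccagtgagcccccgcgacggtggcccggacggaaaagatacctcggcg

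Of the 280 bases printed, the combination region covers 260 at CHEK2, and the enzalutamide region 139 at LIG3 and 99 at LIG4. The CHEK2 window holds CCAAT 3 times on the opposite strand, from bases -199, -70 and -40 counted from the start, and the GC box GGGCGG once, and all 4 matches are in capitals. The LIG3 window has a GC box from base -58, outside the listed part. The LIG4 window has an ETS match (CCGGAAGT, opposite strand) from base -143 and AGAACA, 1 arm of the androgen receptor element, also on the opposite strand, from base -85, both outside the listed part. At the ATM start at 108223325, the enzalutamide region covers 250 of 280 bases. Inside it lie GGTCA, 1 arm of the oestrogen receptor element, on the opposite strand from base -157, and CCAAT from base -56. At the MSH6 start at 47783602 it covers 49 bases, and a GC box from base -173 lies outside them. A match describes letters and not a bound site.

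Hormone receptor letters were found at shares near those of all genes. The full windows, of 250 bases before to 50 after each start, were searched on both strands, and a gene counted if any of its windows had a match. GGTCA, 1 arm of the oestrogen receptor element, was found at 12 of 32 repair genes (37.5%) and at 42.7% of all genes, and AGAACA at 4 (12.5%, namely BRCA2, LIG4, PARP1 and PARP2) and 14.9%. Inverted pairs of either arm with 3 bases between them were found at no repair gene, and at 0.0505% (oestrogen) and 0% (androgen) of all genes. GGTCA occurred at 3 of the 12 genes with an enzalutamide region at the start and at 9 of the other 20. General promoter letters were common, with GGGCGG at 25 genes (78.1%, against 64.3% of all genes) and CCAAT at 18 (56.2%, against 42.1%). The ETS letters CCGGAAGT were found at 8 genes (25.0%, against 6.97%), namely BRCA2, PALB2, RAD50, MRE11, LIG4, POLL, POLQ and FANCD2, and only LIG4 and FANCD2 of these had an enzalutamide region at the start. The cyclic AMP element TGACGTCA was found at 5 (15.6%, against 3.00%), namely RAD51C, XRCC2, LIG4, PARP2 and PMS2, the NRF1 core CGCATGCG at XRCC6 alone (3.12%, against 3.28%) and the E2F letters TTTCGCGC at none (0.940% of all genes). Repair genes more often have a CpG-rich window (93.8%, against 68.4% of all genes), and the motif shares were not set against CpG-rich genes alone. These shares describe the windows and were not tested.

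Some regions of the repair genes were common to 2 lists. Under an overlap of at least 1 bp, 6 genes had such a region: WRN and ATR between enzalutamide and OSU-ERb-12, XRCC6 between enzalutamide and the combination, and POLL, PARP1 and PMS2 between OSU-ERb-12 and the combination. The share of all genes with such a region is not given here, so only the regions can be set against the whole lists. Of the 51 enzalutamide regions at repair genes 2 (3.92%) overlapped an OSU-ERb-12 region, as did 6.17% of the whole list. Of the 14 combination regions 1 (7.14%) overlapped an enzalutamide region and 3 (21.4%) an OSU-ERb-12 region, against 16.3% and 12.7% of the whole list. Seen from the other lists, 3 of 24 OSU-ERb-12 regions (12.5%) and 1 of 51 enzalutamide regions (1.96%) overlapped a combination region, against 4.43% and 4.02%. No region of a repair gene was in all 3 lists, a count given without the share over all regions. The 4 genes with regions of every list, RAD51B, CHEK1, PRKDC and PARP1, thus held them at different places, apart from the shared region of PARP1. The lists may have vehicle samples in common, so overlaps describe the lists and are not independent.

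Other repair genes, 113 in 7 pathway lists, were counted in the same way. Enzalutamide regions were present at 74 (65.5%), OSU-ERb-12 regions at 41 (36.3%) and combination regions at 18 (15.9%), where genes of like length give 67.2, 44.9 and 24.6. Their loci held 17.1 enzalutamide regions per Mb (exact Poisson interval 14.3 to 20.3), 7.91 OSU-ERb-12 regions (6.05 to 10.2) and 2.46 combination regions (1.48 to 3.85). All protein-coding loci held 11.8, 7.60 and 2.86 per Mb. The enzalutamide interval thus lay above the density of all loci, although the count of genes was near that of like length. This difference was not tested. In further homologous recombination genes 16 of 21 had an enzalutamide region, in end joining 8 of 13 and in mismatch repair 10 of 15, where genes of like length give 12.6, 8.06 and 9.87. The shares were 76.2% in homologous recombination and 61.5% in end joining, and the densities were 19.2 enzalutamide regions per Mb (12.8 to 27.7) and 18.0 (10.6 to 28.4), with overlapping intervals. Of the 13 further end joining genes 1 had a combination region, where genes of like length give 2.96. It was NHEJ1, which encodes a partner of XRCC4 and held 5 enzalutamide, 2 OSU-ERb-12 and 1 combination regions. The density of combination regions was 0.998 per Mb (0.0253 to 5.56) in the further end joining loci, an interval that overlaps the one of the first 8 genes. Among genes of nucleotide excision repair, 12 of 19 had an enzalutamide region and 4 an OSU-ERb-12 region (like length 11.1 and 7.23). At starts, 39 of 95 further genes (41.1%) had an enzalutamide region. For OSU-ERb-12 the number was 9 (9.47%), and under the combined treatment it was 3 (3.16%). The shares of all genes were 29.2%, 6.77% and 5.12%, and those of genes with a CpG-rich window 37.7%, 8.31% and 6.56%.

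The further genes with the most regions, up to 2 per pathway, give the range. In homologous recombination, RAD54B, a relative of RAD54L, held 3 regions of enzalutamide and 3 of OSU-ERb-12, and TOP3A, a topoisomerase that dissolves joined molecules, held 2, 3 and 1 of the 3 lists. MAD2L2, part of the complex that protects ends from resection, held 2 enzalutamide and 2 OSU-ERb-12 regions. Of the clamp loader genes used in mismatch repair, RFC4 held 4 and 2, and RFC1 held 3 and 1. The glycosylases OGG1 and TDG, which remove damaged bases, held 3 and 3, and 3 and 2. In nucleotide excision repair, ERCC4, a subunit of an endonuclease, held 1 enzalutamide, 2 OSU-ERb-12 and 1 combination regions, and DDB2, a sensor of ultraviolet damage, held 2, 2 and 0. The Fanconi genes FANCC and FANCE held 5 and 1, and 2 and 2. WEE1, a kinase that restrains entry into mitosis, held 3 and 1, and H2AX, the histone marked at breaks, held 2 enzalutamide regions and 1 of the combination.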

How the data were processed

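ATAC-seq was run on 12 samples in 4 groups of 3. Per the labels' protocols, ATACSeqQC split the reads into nucleosome-free and nucleosomal fractions. The submitters' processing notes list FastQC, Trimmomatic and hg38. How peaks were called, tested, thresholded or pooled is not given in the sources used here. Per region, the authors deposited positions in 3 lists without a header, whose score column, as deposited, is 0 in every row, so regions could not be ranked. Boundaries lie on a 50 bp grid and the shortest region is 200 bp. Different cut-offs upstream would change the length of each list.

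Positions were made 1-based and joined to RefSeq genes and promoter windows of GRCh38.p14 with Python 3.11.15, pandas 2.3.3 and scipy 1.17.1. All 37 symbols matched. A region counted if it overlapped a locus by 1 bp or more. Like length means the same decile of gene length. Density from a chromosome is the number of regions on it over its extent, taken to its outermost gene or region. Exon and intron positions were not used here. Counting was tested on simulated data.

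The repair genes, pathway lists and rules were chosen with earlier results of these data known. The rule for coordinates took up to 6 genes with the most regions per list, those with regions of all lists, shared regions or regions at starts. Coordinates of the remaining genes were added after their values were seen. The rule also took up to 2 further genes per pathway. Promoter windows of ATM, RAD51C and MSH6 also overlapped a region, after their first start, and are not printed. The comparison with CpG-rich promoters and neighbouring starts was added after the data were seen.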

Additional observations from a re-analysis of the deposited data

How the results depend on the processing

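No value per sample was given, so no replicate could be left out. No paired analysis was possible because the lists hold no value per sample. The counts of repair genes with a region stayed within 1.5 times under the gene body alone, 50 kb either side, a rule of at least 50% of the region inside, and without regions in another gene's body. With regions of at least 250 bp, OSU-ERb-12 fell to 6 genes and the combination to 4 (17.9% and 8.14% of all genes). This setting drops every region of 200 bp, and the densities became 6.60 (enzalutamide), 1.65 (OSU-ERb-12) and 1.18 (combination) per Mb. With the gene body alone, enzalutamide density was 7.99 per Mb, homologous recombination genes with a combination region were 10.0%, and end joining genes were 25.0% for enzalutamide and 12.5% for OSU-ERb-12. No density over all protein-coding genes is given for these settings. The changed densities thus cannot be set against those of all loci with 10 kb either side. With 5 kb either side of a start, 3 genes had an OSU-ERb-12 region (PARP1, FANCD2 and PMS2; 14.4% of all genes) and 5 a combination region (8.29%). The other planned settings moved no value beyond 1.5 times or its counting interval. Leaving out RAD51B, or chromosomes with more than 0.8 OSU-ERb-12 regions per enzalutamide region (1, 3, 7, 8 and 12), was added after the data were seen. Without those chromosomes 32.0% of 25 repair genes held an OSU-ERb-12 region, against 34.0% of all genes. Unknown depth limits every count.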
